A study of Mus musculus with 6 samples.

Results

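The metallothionein genes Mt1, Mt2, Mt3 and Mt4 were examined together with Mtf1, Slc30a1 and Slc39a10, genes of the cell's response to zinc, in cultured mouse podocytes with and without knockout of the adaptor genes Nck1 and Nck2. The 7 genes were listed by name, with results of this comparison already known. Each was read from the probe set that carried its symbol alone, and each had 1 such probe set among 30702 genes. The samples were 3 arrays of an NCK1/2 knockout line and 3 of a Wildtype line of conditionally immortalized podocytes, epithelial cells of the kidney's filter, which had differentiated on type I collagen for 10 days before RNA was taken. The labels name neither the knockout allele nor a Cre, and whether a line is 1 clone is not given. The design text calls the replicates independent, without naming separate cultures, so p-values measure the spread between these samples.

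Metallothioneins are small cysteine-rich proteins that bind zinc, copper and cadmium and buffer free metal in the cell. Their best-known inducer is MTF1, a zinc-sensing transcription factor that binds metal response elements (MREs) in promoters. In mouse cells MTF1 also drives the zinc exporter gene Slc30a1, and it restrains the zinc importer gene Slc39a10 when zinc is ample. Mt1 and Mt2 are made in most tissues, kidney included, and also respond to glucocorticoids and oxidative stress, whereas Mt3 is chiefly a brain gene and Mt4 a gene of stratified epithelia.

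The letters upstream of 4 of the genes are shown because Mt1 and Mt2, which differed most between the lines, are neighbours of Mt3 on chromosome 8, and Slc30a1 is the other classical MTF1 target. Each run is the 250 bases before the RefSeq start in GRCm38.p6, 5′ to 3′ on the plus strand, with capitals marking the MRE core, searched on both strands as TGCACNC or TGCGCNC. The Mt1 run lies at chr8:94178839-94179088, Mt2 at chr8:94172368-94172617, Mt3 at chr8:94152357-94152606 and Slc30a1 at chr1:191906531-191906780.
Mt1: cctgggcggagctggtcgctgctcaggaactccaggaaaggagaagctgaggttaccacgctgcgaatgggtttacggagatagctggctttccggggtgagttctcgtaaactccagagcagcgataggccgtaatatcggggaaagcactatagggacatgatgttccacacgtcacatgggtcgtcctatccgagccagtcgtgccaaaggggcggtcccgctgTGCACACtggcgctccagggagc
Mt2: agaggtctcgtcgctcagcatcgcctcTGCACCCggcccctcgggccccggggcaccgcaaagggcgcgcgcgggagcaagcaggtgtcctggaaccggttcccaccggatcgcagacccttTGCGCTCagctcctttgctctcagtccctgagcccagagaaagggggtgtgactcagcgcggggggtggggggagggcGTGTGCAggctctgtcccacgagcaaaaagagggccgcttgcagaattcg
Mt3: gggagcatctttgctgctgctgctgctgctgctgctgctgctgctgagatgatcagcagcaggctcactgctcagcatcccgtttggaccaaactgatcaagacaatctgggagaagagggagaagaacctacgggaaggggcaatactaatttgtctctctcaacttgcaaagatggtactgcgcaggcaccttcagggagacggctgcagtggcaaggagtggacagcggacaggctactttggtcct
Slc30a1: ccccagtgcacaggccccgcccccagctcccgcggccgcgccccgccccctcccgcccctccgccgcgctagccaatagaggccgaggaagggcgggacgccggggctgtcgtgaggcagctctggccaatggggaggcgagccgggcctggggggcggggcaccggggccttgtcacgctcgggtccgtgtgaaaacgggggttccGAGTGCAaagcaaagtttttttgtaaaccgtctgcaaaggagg
In these 250 bases Mt2 held 3 matches, Mt1 and Slc30a1 held 1 each, and Mt3 held 0. The 250 bases upstream of Mt4, not shown, also held 1. Of 32851 such windows in the RefSeq table, 21.4% held at least 1 match and 1.26% held at least 3. With the 50 bases after the start added, Mt2 held 4 matches, Mt1 held 3, Slc30a1 held 2, and Mt3 and Mt4 held 1 each. In those windows of 300 bases, 25.7% held at least 1 match, 7.11% at least 2, 1.97% at least 3 and 0.517% at least 4. Neither Mtf1 nor either of the 2 windows listed for Slc39a10 held these letters. The core of the antioxidant response element, TGACNNNGC, occurred once each upstream of Mt2 and Slc30a1, apart from the MRE matches, and in 10.2% of all windows of 250 bases. The windows follow RefSeq starts, and the classical transcription starts of mouse Mt1 and Mt2 may lie downstream of these, so that MREs nearer to them would fall outside the windows and the counts. A match of letters is a description of the window and not of binding.

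The 2 lines did not differ in genotype alone. Nck1 had a log2 intensity of 8.12 ± 0.06 in knockout and 8.63 ± 0.10 in wildtype (SD, n = 3 each; limma adjusted p = 0.00391), and Nck2 had 7.24 ± 0.04 in knockout and 7.48 ± 0.13 in wildtype, which missed the threshold (difference -0.24, limma adjusted p = 0.0941) with both means low, under 7.78. Where these probe sets lie relative to the deleted parts is not known, so they check the labels weakly. Xist, the RNA of the inactive X chromosome, was at 6.01 ± 0.05 in knockout and 12.19 ± 0.04 in wildtype, and the Y-linked Uty was at 9.90 ± 0.07 in knockout and 5.21 ± 0.14 in wildtype, so line, sex chromosomes and genotype cannot be told apart. Of the podocyte markers, 0 of 4 measured passed, and Nphs1 and Wt1 were in both lines also under that level, the highest mean among 23 probe sets for background, and values up to it are called within background. Rose and fell mean a limma adjusted p under 0.05, which 12.0% of all genes reached. Fibroblast and mesangial markers rose, 4 of 4 measured, with a summed linear intensity of 12781 to 14096 in knockout and 1638 to 1844 in wildtype arrays, and tubule markers fell for 4 of 7, at 6431 to 6732 in knockout and 16770 to 17955 in wildtype. The 5 endothelial markers were within background in both lines. Of 4 macrophage markers 1 rose and 1 fell, with sums of 722 to 897 in knockout and 1065 to 1189 in wildtype. The part of these markers in the results below was not tested, and in such samples a change in the share of a cell type and a change in RNA per cell cannot be told apart.

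Mt1 and Mt2 stood far higher in the knockout line. Mt1 (probe set TC0800001095.mm.1) had log2 intensities of 11.58, 11.72 and 12.03 in the knockout arrays, against 9.04, 9.07 and 9.06 in the wildtype arrays. The 3 wildtype values lay within 0.03 of each other, the knockout values spread over 0.45, and the groups did not overlap. The difference was 2.72 on the log2 scale, or 6.59-fold, between means of 11.78 ± 0.23 in knockout and 9.06 ± 0.01 in wildtype (SD, n = 3 each).

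Mt2 (probe set TC0800001094.mm.1) had 11.43, 11.60 and 11.79 in the knockout arrays, against 9.09, 8.55 and 8.41 in the wildtype arrays. Its lowest knockout value was far above its highest wildtype value, which came from wildtype array 1. Its wildtype spread of 0.67 was wider than that of Mt1. The difference was 2.92 on the log2 scale, or 7.58-fold, between 11.61 ± 0.18 in knockout and 8.68 ± 0.36 in wildtype. Both genes were highest in knockout array 3 and lowest in knockout array 1, but in wildtype arrays the extra signal of array 1 for Mt2 had no counterpart in Mt1. By size of rise, Mt2 ranked 31 and Mt1 ranked 41 among 30702 genes, of which 0.932% were higher in knockout by at least 1 on the log2 scale. Neither mean of either gene was within background. Mt1 and Mt2 are close paralogs, and cross-hybridization between their probes was not tested.

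The other metallothionein genes of the cluster showed no such gap. Mt3 had 8.12, 8.27 and 8.03 in knockout arrays, against 8.08, 8.12 and 8.12 in wildtype arrays, so that the wildtype values lay inside the knockout range, and the means differed by 0.03. Mt4 had 6.68, 6.68 and 6.73 in knockout arrays, against 6.75, 6.43 and 6.68 in wildtype arrays, with a difference of 0.08, overlapping groups and both means within background. The summary of probes by median polish gave some arrays the same value to the last digit: Mt4 had 4 distinct values over 6 arrays, and Mt3 and Mtf1 had 5 each.

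**Figure D1:**
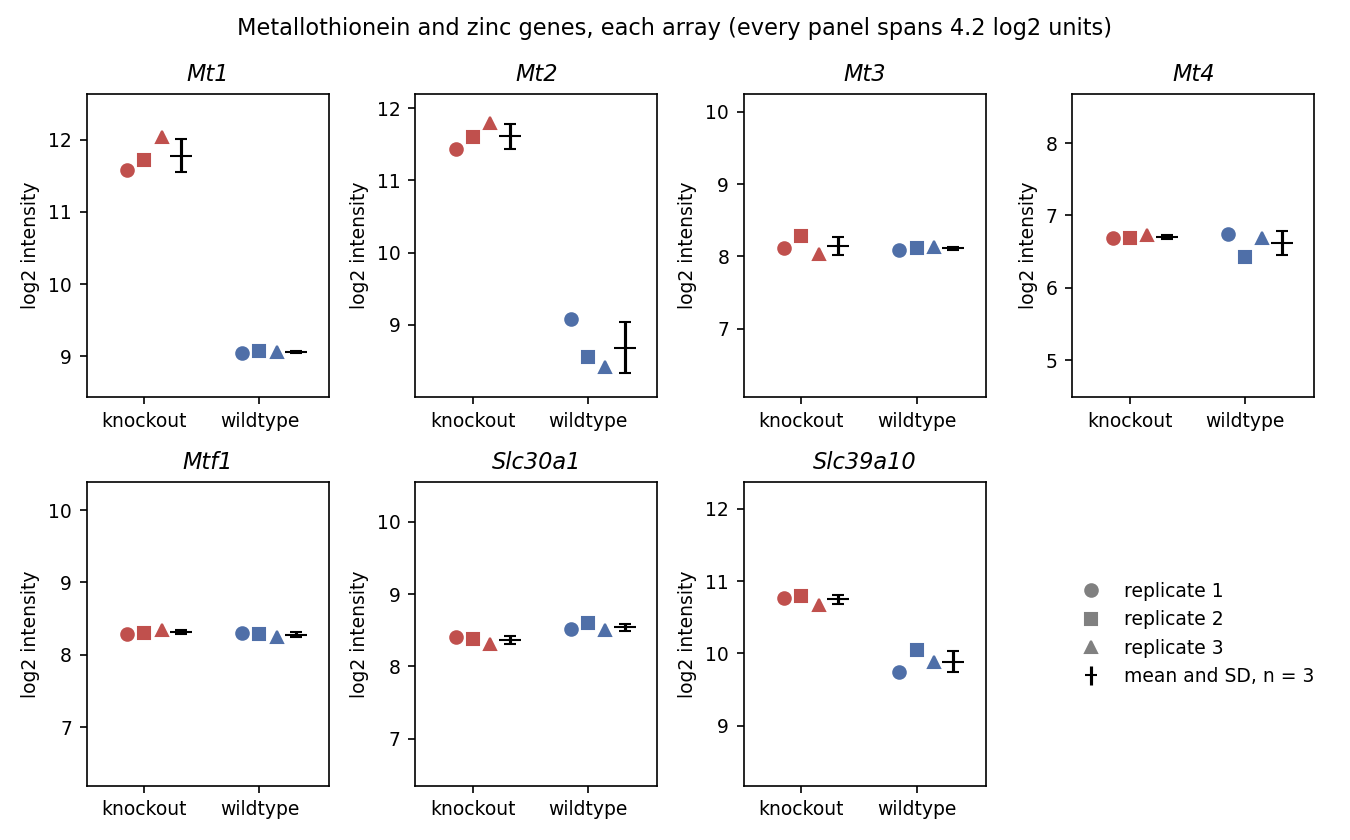
Log2 intensity (vertical axis) of the 7 genes in each array, knockout left and wildtype right in each panel, with symbols for the replicate number and a bar for the mean and SD of 3 arrays. Mt1, Mt2 and Slc39a10 lie higher in knockout without overlap, Slc30a1 lies 0.18 lower, and Mt3, Mt4 and Mtf1 overlap.

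The transcript of the regulator differed little. Mtf1 (probe set TC0400001427.mm.1) had 8.29, 8.31 and 8.34 in knockout arrays, against 8.31, 8.29 and 8.24 in wildtype arrays. The groups overlapped and the difference of 0.03 was of the size of the SDs, 0.03 in knockout and 0.04 in wildtype.

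Of the zinc transporter genes of the set, the importer was higher in knockout and the exporter was slightly lower. Slc39a10, encoding the importer ZIP10 of the plasma membrane, had 10.77, 10.80 and 10.67 in knockout arrays, against 9.74, 10.04 and 9.88 in wildtype arrays. All knockout values were above all wildtype values, and the difference was 0.86 on the log2 scale, or 1.81-fold, between 10.74 ± 0.07 in knockout and 9.89 ± 0.15 in wildtype. Slc30a1, encoding the exporter ZnT1, had 8.40, 8.38 and 8.30 in knockout arrays, against 8.52, 8.60 and 8.51 in wildtype arrays. Here the knockout values were the lower ones, again without overlap, but the gap was small, with a difference of -0.18 between 8.36 ± 0.05 in knockout and 8.54 ± 0.05 in wildtype. The genes of the set were chosen with results of this comparison known, so the difference of Slc30a1 is described without a test.

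Among the 7 genes the median difference was 0.08, against 0.01 over all genes, and 4 of 7 had groups that did not overlap, against 27.4% of all genes. At a limma adjusted p under 0.05, 3 of the 7 were higher and 0 were lower in knockout, where 12.0% of all genes passed in either direction, 5.05% being higher and 6.90% lower. The genes were chosen on this contrast, so nothing is read from these counts.

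Most other zinc transporter genes did not pass. Of 9 further SLC30 exporters 1 rose, 1 fell and 7 did not pass, with a list median of -0.05. Slc30a5, whose product ZnT5 loads zinc into the early secretory pathway, had 9.82, 9.76 and 9.60 in knockout arrays, against 10.14, 10.25 and 10.17 in wildtype arrays. It fell by 0.46 on the log2 scale, below every wildtype value (SE 0.07, limma adjusted p = 0.00735). Slc30a4, encoding the vesicular transporter ZnT4, rose by 0.36 (SE 0.08, limma adjusted p = 0.0423). This result was lost without knockout array 1 (adjusted p = 0.149) or 2 (0.134), without wildtype array 1 (0.126), 2 (0.0737) or 3 (0.16), and with quantile normalization repeated (0.116). The other 7 exporters differed by -0.06 to 0.08.

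Of 13 further SLC39 importers 1 rose, 0 fell and 12 did not pass, with a list median of 0.03. The one that rose was Slc39a14, encoding ZIP14, which carries zinc, iron and manganese. It had 8.97, 8.94 and 9.09 in knockout arrays, against 8.70, 8.63 and 8.58 in wildtype arrays, a rise by 0.36 (SE 0.06, limma adjusted p = 0.012), lost without wildtype array 3 (adjusted p = 0.0626). The other 12 lay between -0.09 and 0.09.

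Other genes reported as MTF1 targets went both ways, with 2 of 7 higher, 2 lower and 3 not passing, and a list median of 0.06. Slc40a1, encoding the iron exporter ferroportin, had 8.41, 8.31 and 8.27 in knockout arrays, against 9.87, 10.01 and 9.98 in wildtype arrays. It fell by 1.62 on the log2 scale (SE 0.06, limma adjusted p = 3.3e-05). Gclc, encoding the catalytic subunit of the enzyme that starts glutathione synthesis, stood at 11.13 ± 0.03 in knockout and 12.43 ± 0.03 in wildtype, a difference of -1.30 (SE 0.04). Ndrg1, which responds to hypoxia, rose by 1.06 (SE 0.08), and Csrp1, a LIM protein gene of smooth muscle, by 0.89 (SE 0.09).

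**Figure D2:**
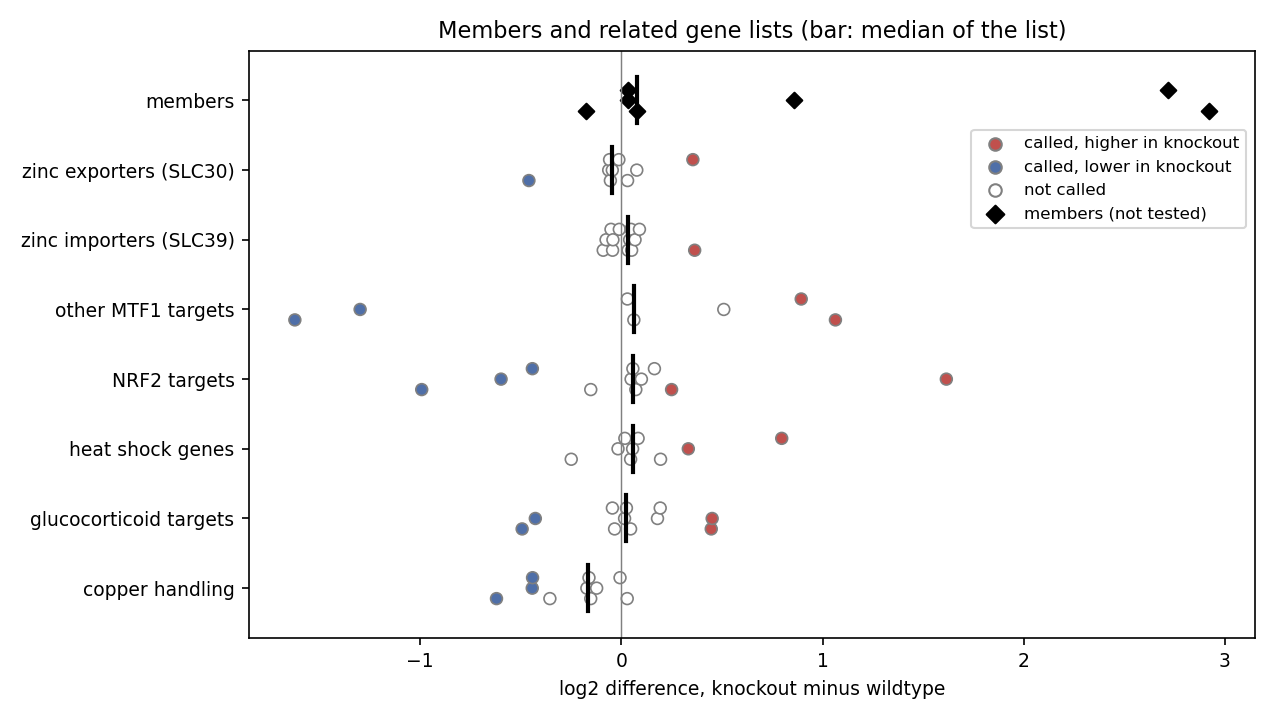
Log2 difference, knockout minus wildtype (horizontal axis), of the 7 genes (diamonds, no test shown) and of each gene of 7 related lists, coloured where limma's adjusted p was under 0.05. Black bars mark list medians, which run from -0.17 for copper handling to 0.08 for the 7 genes.

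Genes of the other known inducers of metallothioneins were compared in the same fit. Among 11 NRF2 targets, genes of the oxidative stress response, 2 rose, 3 fell and 6 did not pass, and the median was 0.06. Hmox1, encoding heme oxygenase, had 10.76, 10.67 and 11.11 in knockout arrays, against 9.19, 9.29 and 9.22 in wildtype arrays, a rise by 1.62 (SE 0.11, limma adjusted p = 0.000384). Like Mt1 and Mt2, it was highest in knockout array 3, but so were Ndrg1, Csrp1 and Hspb1, though not Slc30a4 or Bag3. Its lowest knockout value was in array 2, whereas that of Mt1 and Mt2 was in array 1. The sulfiredoxin gene Srxn1 fell by 0.99 (SE 0.05) and the glutathione reductase gene Gsr by 0.60 (SE 0.05). The quinone reductase gene Nqo1 fell by 0.44 (SE 0.09, limma adjusted p = 0.0285) with both means within background. Its call was lost without wildtype array 2 (adjusted p = 0.0984) or 3 (0.119) and without knockout array 1 (0.108), 2 (0.0704) or 3 (0.0855). The other gene that rose was Taldo1, of the pentose phosphate pathway, by 0.25 (limma adjusted p = 0.0226; named after its value was seen). Its call was lost without knockout array 1 (adjusted p = 0.0682), 2 (0.0654) or 3 (0.0554), without wildtype array 1 (0.0529) or 3 (0.105), and with the replicate block (0.0576).

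Among 9 heat shock genes, which respond to cadmium and misfolded protein, 2 rose, 0 fell and 7 did not pass, with a median of 0.06. The small heat shock protein gene Hspb1 rose by 0.80 (SE 0.07, limma adjusted p = 0.000872) and the co-chaperone gene Bag3 by 0.33 (SE 0.07, limma adjusted p = 0.0315). Bag3 no longer passed when any 1 of the 6 arrays was left out, at adjusted p from 0.0511 to 0.122. Hspa1a, the inducible HSP70 gene, differed by -0.02 with both means within background. Hspa8, which did not pass, was read from probe set TC0600002513.mm.1, whose number points to chromosome 6 though the gene lies on chromosome 9.

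Among 11 measured genes of the glucocorticoid list, the receptor gene included, 2 rose, 2 fell and 7 did not pass, with a median of 0.03. The phosphatase gene Dusp1 rose by 0.45 (SE 0.05) and the kinase gene Sgk1 by 0.45 (SE 0.05). Nr3c1, the glucocorticoid receptor gene itself, fell by 0.49 (SE 0.07, limma adjusted p = 0.00552). Errfi1, an inhibitor of the EGF receptor, fell by 0.43 (SE 0.07, limma adjusted p = 0.0091), lost without wildtype array 3 (adjusted p = 0.0531). Fkbp5 and Tsc22d3, common reporters of glucocorticoid action named after their values were seen, differed by -0.03 and 0.05 with all means within background.

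Copper is the other essential metal that metallothioneins bind. Of 10 measured genes of copper handling, 0 rose, 3 fell and 7 did not pass, with a median of -0.17. Of all genes 5.05% rose and 6.90% fell, and this list too was chosen with earlier results known. Sod1, encoding copper-zinc superoxide dismutase, fell by 0.62 (SE 0.05, limma adjusted p = 0.000685). Cox17, which delivers copper to cytochrome oxidase, fell by 0.44 (SE 0.06, limma adjusted p = 0.00487), and the copper transporter gene Slc31a2 by 0.44 (SE 0.10, limma adjusted p = 0.0343). The last call was lost without knockout array 1 (adjusted p = 0.0562) or 2 (0.0997) and without wildtype array 1 (0.0827), 2 (0.118) or 3 (0.126). The other 7 lay between -0.36 and 0.03.

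Among the chromosomal neighbours of the metallothionein genes, 2 of 10 passed in the fit over all genes, where 12.0% of all genes passed. That count moved with the processing. In reference order the cluster runs Mt4, Mt3, Mt2, Mt1. Of the 5 measured protein-coding genes on each side, 10 in all, 1 rose, 1 fell and 8 did not pass, with a median of 0.03. With a variance trend 4 of 10 passed, with quantile normalization repeated 5 of 10, and with the filter on dim genes 5 of the 7 that it kept, 1 of them lower in each. Of all genes, 12.3%, 14.7% and 32.8% passed in these fits, in the same order. Bbs2, a ciliary gene next to Mt4, had 8.82, 8.78 and 8.70 in knockout arrays, against 9.30, 9.50 and 9.37 in wildtype arrays. Its values did not overlap between lines, and it fell by 0.62 (SE 0.07, limma adjusted p = 0.00199). Psme3ip1, whose product binds a proteasome activator, was called higher by 0.19 (SE 0.05, limma adjusted p = 0.0493). It no longer passed when any 1 of the 6 arrays was left out (adjusted p from 0.0809 to 0.135), with the replicate block (0.0961) or without genes identical within a group (0.0624). Nup93, a nuclear pore gene next to Mt1 named after its value was seen, differed by 0.18 (limma adjusted p = 0.0515), and passed in those 3 fits and without wildtype array 2 (adjusted p from 0.016 to 0.0438).

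**Figure D3:**
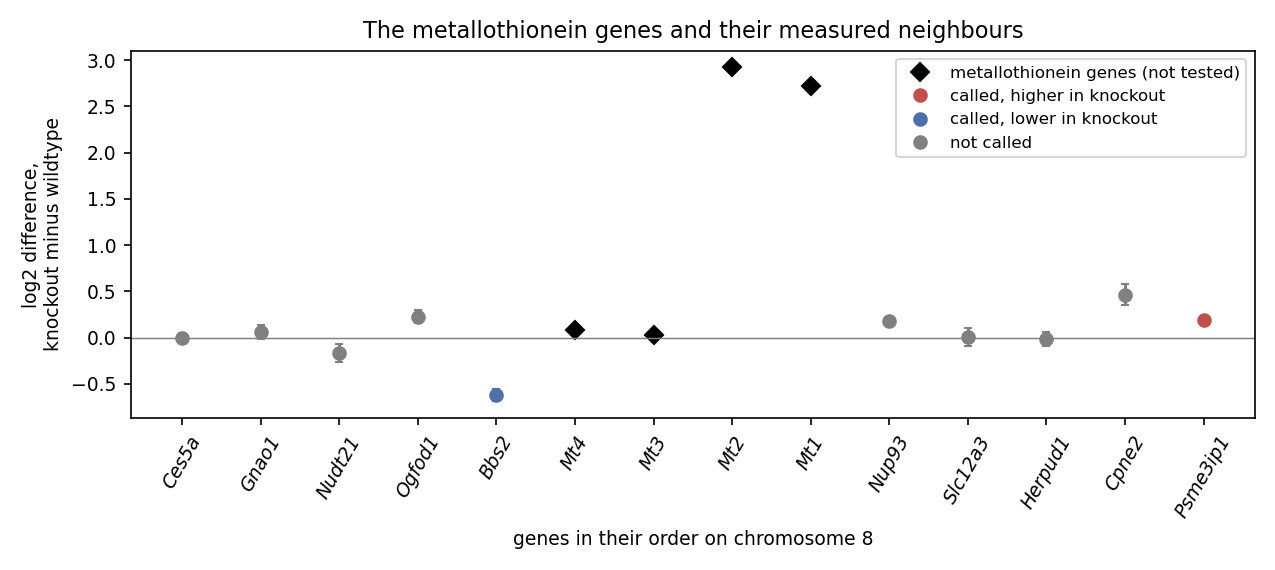
Log2 difference, knockout minus wildtype (vertical axis), of the metallothionein genes (diamonds, no test shown) and of 5 measured protein-coding genes on each side, in their order on chromosome 8, with limma standard errors as bars. Mt2 and Mt1 stand at 2.92 and 2.72, and the 10 neighbours lie between -0.62 and 0.46.

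The genes whose profiles over the 6 arrays were most like the mean of Mt1 and Mt2 were Antxr1, Gpnmb, Emp2, Kdm5d and Col1a1. Likeness was the root mean square difference between values centred on each gene's mean, among 21016 other genes with established symbols, and it ran from 0.12 to 0.16 for these 5, against a median of 1.42. Antxr1, encoding a collagen-binding receptor for anthrax toxin, had 8.85, 9.08 and 9.36 in knockout arrays, against 6.47, 6.20 and 6.45 in wildtype arrays. Its values, like those of the membrane glycoprotein gene Gpnmb, put the knockout arrays in the same order as Mt1 and Mt2 did. Emp2 encodes a tetraspan membrane protein. All 5 genes had their highest wildtype value in array 1, as Mt2 did and Mt1 did not. That array also had the highest median of the wildtype arrays over all genes, 7.22 against 7.08 and 7.16. The wildtype means of Antxr1, Gpnmb, Emp2 and Kdm5d were within background, so their lower level was not separated from background. Kdm5d is a Y-linked histone demethylase gene and Col1a1 a chain of type I collagen, also in the fibroblast and mesangial list above. These likenesses rest on the same gap between the lines. The 5 genes were also chosen for likeness over these 6 arrays, so a shared order or peak of arrays is not a separate result.

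**Figure D4:**
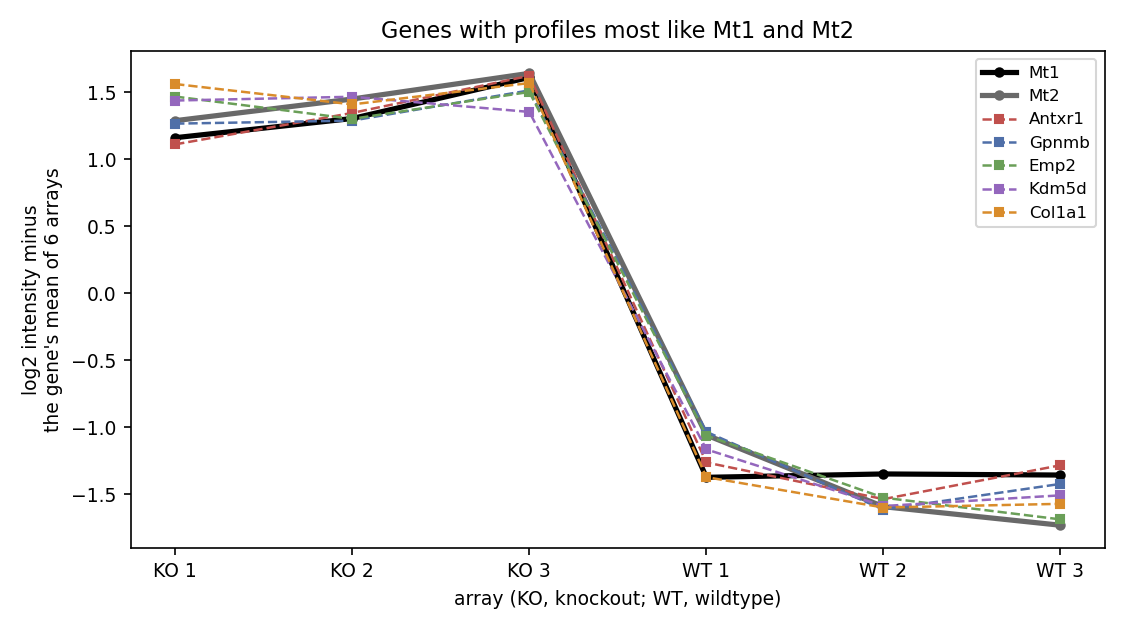
Log2 intensity minus the gene's mean of 6 arrays (vertical axis) for Mt1, Mt2 and the 5 genes with the most similar profiles, in each knockout (KO) and wildtype (WT) array. Lines join the points of a gene and imply no order of arrays. All 7 profiles share the gap between lines, and Mt1 is the flattest over the wildtype arrays.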

How the data were processed

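Total RNA of 6 podocyte samples was hybridized to Affymetrix arrays. The authors deposited 1 log2 intensity per probe set and array, for which the submitters' processing notes name affy 1.44.0 with RMA. RMA corrects background, quantile-normalizes arrays and summarises probes by median polish. Probe definitions and filters were not stated, and no scanner files were used here, so another background correction was not tried.

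Of 72688 probe sets, 31258 named 1 gene after aliases were merged through a GRCm38.p6 gene table, 1492 named several and were not used, and 39938 were unnamed. The probe set with the highest mean was kept per gene, leaving 30702. Array medians over genes ran from 7.08 to 7.22, and Pearson correlations across genes from 0.993 to 0.997 within and 0.978 to 0.985 between lines. No detection calls were used, and 62.9% of genes lay within the background range. The number of arrays limits the precision.

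Knockout was compared with wildtype over all genes by limma 3.58.1 in R 4.3.3 (lmFit, eBayes, two-sided, no covariate), with Benjamini-Hochberg adjustment, a call being an adjusted p under 0.05. The code was tested on simulated data. Members and lists were chosen with earlier results of these data known. The members were part of the fit, but no p-value is given for a member and nothing is read from the count of their calls. Named were all members, up to 4 called genes of each list with the largest change, the called chromosomal neighbours and the 5 nearest profiles. Listed genes whose probe sets named several genes or that had none are not analysed here. Promoter sequences are RefSeq's, matched by symbol for 7 of 7 genes. Alternatives were the replicate block, each array left out, a filter on dim genes, a variance trend, repeated quantile normalization, the dimmest probe set and leaving out genes with identical values in a group. Figures were drawn with matplotlib 3.10.9.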

Additional observations from a re-analysis of the deposited data

How the results depend on the processing

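Mt1 ran from 2.59 to 2.82, Mt2 from 2.79 to 3.12, Slc39a10 from 0.79 to 0.94 and Slc30a1 from -0.20 to -0.15 when each array was left out. Mt3 ran from -0.04 to 0.09, Mt4 from -0.02 to 0.14 and Mtf1 from 0.01 to 0.05. With quantile normalization repeated, Mtf1 was at 0.0635, against 0.0319.

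The count of called genes, 3669, ran from 2079 to 3388 when each array was left out, at 2079 without wildtype array 3, 2232 without knockout array 1 and 2311 without knockout array 2. In those fits the exporters called were 1 to 2, the importers 0 to 1, NRF2 targets 3 to 4, against 5, heat shock genes 1 in each fit, against 2, and chromosomal neighbours 1 to 2. Repeated quantile normalization left 1 exporter called, and it called 5 neighbours, as did the filter on dim genes over the 7 it kept, while the variance trend called 4, against 2. The filter on dim genes, where 32.8% of all genes kept passed, also called more in other lists. It called 6 of 9 NRF2 targets, 3 of 8 heat shock genes, 5 of 6 other MTF1 targets and 4 of 7 copper genes. Those counts compare with 5, 2, 4 and 3 in the main fit. Exporters, importers and the glucocorticoid list kept their counts. Over all alternatives, 322 of the values for single named genes outside the 7 kept their direction and side of the threshold, 38 kept direction but no longer passed, 4 (all of Nup93) newly passed, and 2 reversed. Those were of Hspa1a, at 0.00241 with quantile normalization repeated and 0.0176 without knockout array 3, against -0.0168, in a range of -0.0344 to 0.0176 when each array was left out. The cause was not tested.

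Same-numbered arrays of the lines deviated together with correlations of 0.35, 0.28 and 0.04, against -0.34 to 0.05 for differently numbered arrays. Knockout array 3 correlated slightly better with wildtype array 2 (0.053) than with its own number (0.040). The design text calls the replicates independent, so the main fit had no block. Whether the numbers pair the samples was not settled. With the replicate number as a block 3765 genes were called, and among named list genes Psme3ip1 and Taldo1 lost their calls.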
